A study of Mus musculus with 33 samples.

Results

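The 83 cytosolic ribosomal protein genes of the mouse were followed in liver RNA. They were chosen by symbol alone: every Rps, Rpl and Rplp row and Rpsa, without the S6 kinases and pseudogenes, that summed to at least 10 counts over 33 libraries. They are 33 genes of the small subunit, 47 of the large subunit and 3 of the stalk, out of 19169 genes in the table, and 81 passed the filter on low counts. Polyadenylated RNA was sequenced from the livers of wild-type (WT) mice and of knock-in (KI) mice, labelled Nlrp3A350V/+CreT, which carry 1 mutant allele of the inflammasome sensor Nlrp3 that tamoxifen switches on through a Cre recombinase. The labels do not name the promoter that drives this Cre, nor an age, and they do not mention tamoxifen or Cre for the WT mice. For 6 weeks the mice ate chow labelled as control with placebo (control) or a diet with GS-444217, an inhibitor of the stress kinase ASK1 (ASK1i). WT control had 10 libraries (7 female, 3 male), WT ASK1i 8 (4 and 4), KI control 5 (1 and 4) and KI ASK1i 10 (5 and 5).

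A ribosomal protein is a structural part of the ribosome, and the subunits need their proteins in fixed proportion to ribosomal RNA. Their messengers begin with a run of pyrimidines, the TOP motif, through which the kinase complex mTORC1 sets how much of them is translated. In liver, which exports most plasma proteins, ribosomes take up much of the cell's RNA. A few members have a paralog that can take their place in the particle.

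The starts of 8 members are shown as examples, picked from the members named below, with the paralogs Rpl22l1, Rps27l and Rpl7l1 among them. Each line holds 40 bases before to 20 bases after the start that RefSeq annotates on GRCm38.p6 (the coordinates of mm10), read on the gene's strand. Capitals mark the longest run of a C followed by at least 4 pyrimidines that ends no earlier than 10 bases before the start.
Rps15a (chr7:118116128-118116187, minus strand): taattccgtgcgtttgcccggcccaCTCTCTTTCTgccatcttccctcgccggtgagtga
Rps12 (chr10:23787190-23787249, minus strand): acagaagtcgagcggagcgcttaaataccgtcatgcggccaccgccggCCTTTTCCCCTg
Rps6 (chr4:86857348-86857407, minus strand): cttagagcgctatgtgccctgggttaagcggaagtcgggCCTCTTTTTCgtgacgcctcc
Rpl35 (chr2:39005112-39005171, minus strand): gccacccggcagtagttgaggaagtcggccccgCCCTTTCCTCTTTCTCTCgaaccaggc
Rps10 (chr17:27635225-27635284, minus strand): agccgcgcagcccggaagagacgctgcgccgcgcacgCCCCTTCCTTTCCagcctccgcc
Rpl22l1 (chr3:28805468-28805527, plus strand): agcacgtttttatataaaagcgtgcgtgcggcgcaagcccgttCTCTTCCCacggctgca
Rps27l (chr9:66946046-66946105, plus strand): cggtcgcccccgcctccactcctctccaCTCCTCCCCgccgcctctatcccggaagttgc
Rpl7l1 (chr17:46782637-46782696, minus strand): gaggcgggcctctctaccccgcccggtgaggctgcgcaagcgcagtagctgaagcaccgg

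The Rpl7l1 window holds no such run. Of the 83 members, 61 had a RefSeq promoter entry within 1000 bases of the table's start. The starts coincided in 49 of these and lay at most 91 bases apart in the others, with 32 bases for Rps27l, whose start in the table lies after the window shown. A C at the annotated start followed by at least 4 pyrimidines was present in 12 of these 61 (19.7%), and in 2.43% of 12766 genes of the table with an entry. A C followed by at least 6 pyrimidines, anywhere from 20 bases before to 40 after the start on the gene's strand, was present in 42 of 61 (68.9%) against 25.1%. CCGGAAG, the letters that ETS-family factors bind, occurred on either strand of the 300-base promoter window in 25 of 61 (41%) against 15%. AAGATGGC, the letters of the YY1 site, occurred on either strand in 5 of 61 (8.2%) against 3.96%. CTCTTTCC on the gene's strand occurred in 6 of 61 (9.84%) against 1.54%. The pyrimidine searches overlap each other, and a match is only a run of letters in the window. Some members that rose on both diets had no run by the second search, among them Rplp0 and Rpl12. Some called on neither diet had one, among them Rpl7a and Rpl15. Whether a run goes with the change by genotype was not tested.

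Libraries held 28099685 to 40008114 counts. Nlrp3, the mutated gene, stood at 3.03 ± 1.05 CPM (library-size-scaled counts, normalised with TMM factors) in WT control (SD, n = 10) and 11.1 ± 3.45 in KI control (n = 5), and this level does not read the allele itself. Map3k5, which encodes ASK1, was lower in KI than in WT on both diets (log2 fold change -0.74 and -0.61). The library labelled KI ASK1i replicate 5 went against its genotype label on the first principal component and in Nlrp3. In Rps12, Rps15a and Rplp0 it did not, since it lay above every WT ASK1i library there. The cause was not tested, and the library was kept under its label in all counts except where said. On the first principal component of all genes (65.7% of the variance) it lay at -46.2, where the highest WT library lay at -35.6 and the other KI ASK1i libraries at 41.6 or above. Its Nlrp3 level was 2.10 CPM. Titles carry L codes whose meaning is not stated, and no L code holds both WT control and KI control.

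Ribosomal protein genes took up a larger share of the counts in KI livers. Their share was 1.37% ± 0.0991 of all counts in WT control (SD, n = 10, range 1.197% to 1.49%) and 1.83% ± 0.270 in KI control. The 5 KI control libraries held 2.09%, 2.04%, 1.95%, 1.58% and 1.501%, so all 5 lay above the highest WT control library. On the inhibitor diet the share was 1.29% ± 0.180 in WT (n = 8, 1.09% to 1.61%, median 1.26%) and 1.67% ± 0.238 in KI (n = 10, 1.31% to 1.97%, median 1.70%). All 10 KI ASK1i libraries lay above the WT ASK1i median and 5 of 10 above the highest WT ASK1i library, so these groups overlapped. The library labelled KI ASK1i replicate 5 held 1.60%. A share of this kind is a description and was not tested. In whole tissue, fewer cells of a type and less RNA per cell cannot be told apart.

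**Figure D1:**
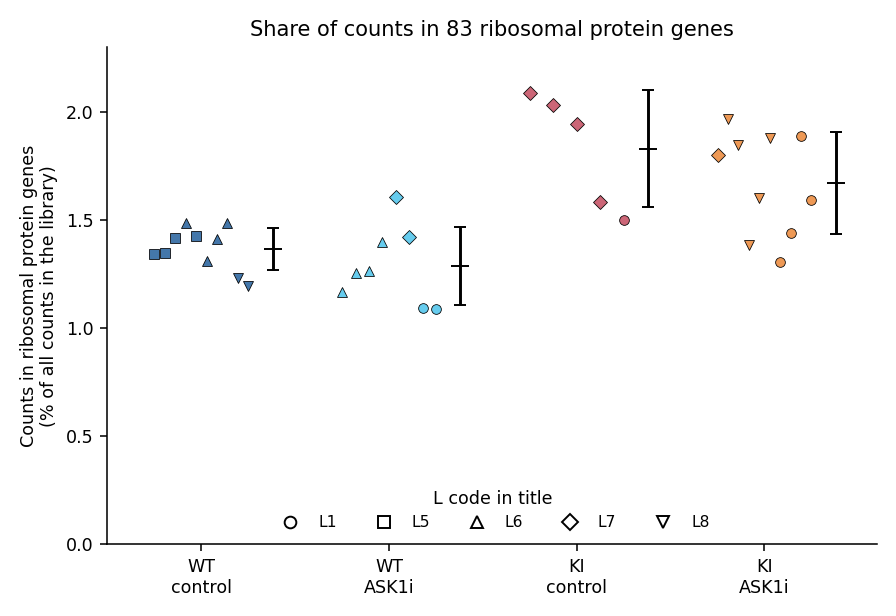
Share of each library's counts in the 83 genes (percent, vertical axis) for the 4 groups; points are libraries, their shapes give the L code, and the bars beside them are mean ± SD. The 5 KI control libraries lie between 1.501% and 2.09%, above all 10 WT control libraries, while the KI ASK1i and WT ASK1i groups overlap.

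The share also differed between L codes within a genotype. Within L1, the 2 WT ASK1i libraries held 1.09% and 1.09%, KI control 1.501% and the 4 KI ASK1i libraries 1.31% to 1.89%. Within L7, the 2 WT ASK1i libraries held 1.42% and 1.61%, the highest of their group, and overlapped the 4 KI control libraries at 1.58% to 2.09%. Within L8, WT control held 1.197% and 1.23% and the 5 KI ASK1i libraries 1.39% to 1.97%. In each of these codes the KI median was above the WT median, but not always on the same diet. In L8 the WT libraries were on control chow with P titles, and the KI libraries were on the inhibitor diet with plain numbers. That code therefore does not separate genotype from diet or title set. In L7 the KI control libraries also differ from the WT ASK1i libraries in diet. The single KI ASK1i library of L7 lay above both WT ASK1i libraries there.

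KI livers on control chow had more RNA of most ribosomal proteins in the fit with the title set (plain numbers, or numbers with a P). With edgeR's quasi-likelihood test, adjusted by Benjamini-Hochberg over all 14934 genes, 58 of the 81 members tested were higher in KI control than in WT control, 1 was lower and 22 were not called. Of all genes tested, 27.8% were called higher and 28.9% lower, 56.7% together. The members' median log2 fold change was 0.29, with the middle of the members between 0.19 and 0.38, and the median over all genes was -0.03. The rise was thus modest in size: the largest fold was 1.63, for Rpl22l1. Small-subunit genes were called higher in 26 of 33 cases, large-subunit genes in 29 of 45 and stalk genes in 3 of 3. In 17 members every KI control library lay above every WT control library, where 16.3% of all genes did so.

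This comparison depended on which covariate stood for the set of libraries. With the L code in place of the title set, 8 of 81 members were called higher and 1 lower. Of all genes, 18.3% were called higher and 34.2% in either direction, each a larger share than among the members. The members' median was 0.22. Since no L code holds both groups, that estimate runs through the ASK1i groups. The members called in that fit were Rps12, Rps15a, Rps29, Rps20, Rplp0, Rpsa, Rpl32, Rpl13 and Rps27l, so every other call of a member on control chow described below was lost with the L code. With library totals in place of TMM factors, 74 members were called higher, and the split over all genes moved from 27.8% higher and 28.9% lower to 33.6% higher and 19.5% lower.

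Among small-subunit genes, Rps12 had the smallest p. Its level was 130, 147 and 154 CPM (lowest, median, highest) in WT control and 255, 251, 229, 188 and 189 CPM in the 5 KI control libraries, with no overlap. The log2 fold change was 0.61 ± 0.10 (SE; 1.53-fold; adjusted p = 4.86e-06, edgeR), higher in 5 of 5. Rps15a (chr7:118104376-118116147 on mm10), which sits in the body of the small subunit, was at 79.7, 86.8 and 96.1 CPM in WT control and at 141, 136, 130, 110 and 117 CPM in KI control. It rose by 0.54 ± 0.09 (adjusted p = 8.17e-06, edgeR), again without overlap. Rps15a counts were fractional in every library, which shows reads divided with another row, and the row Rps15a-ps6 also rose (log2 fold change 0.77), so these rows cannot be fully told apart.

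Rps29 (chr12:69157722-69159186) and Rps20 (chr4:3834473-3835600), both proteins of the head of the small subunit, rose by 0.54 and 0.51. Rps20 was at 110, 122 and 143 CPM in WT control and at 198, 188, 191, 151 and 150 CPM in KI control. Rpsa, the laminin receptor protein that binds the back of the small subunit, went from 294, 345 and 376 CPM to 518, 510, 505, 412 and 402 CPM, a rise of 0.44 ± 0.09. In these 3 genes the KI control libraries all lay above the WT control libraries.

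At the stalk, where elongation factors dock, Rplp0 (chr5:115559467-115563729) carries the Rplp1 and Rplp2 proteins. Its level was 307, 367 and 384 CPM in WT control and 575, 538, 520, 494 and 404 CPM in KI control, a rise of 0.48 ± 0.09 (adjusted p = 5.93e-05, edgeR). Rplp1 and Rplp2 rose by 0.38 and 0.38. All 5 KI control libraries exceeded all WT control libraries for Rplp0, and 3 of 5 did for Rplp1 and for Rplp2.

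Of the large subunit, Rpl39 and Rpl35, which line and surround the exit of the peptide tunnel, rose by 0.49 and 0.46, and Rpl32 rose by 0.48. With the L code Rpl39 was at 0.26 (adjusted p = 0.17, edgeR) and Rpl35 at 0.36 (adjusted p = 0.065, edgeR). Rpl35 (chr2:39001581-39005131) was at 84.5, 91.2 and 104 CPM in WT control and at 145, 133, 144, 113 and 113 CPM in KI control, with no overlap. The 2 partners of the 5S ribosomal RNA did not get the same call: Rpl5 rose by 0.25 ± 0.08, while Rpl11 was at 0.12 ± 0.10 (adjusted p = 0.29, edgeR). That contrast between the pair was not tested itself.

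Several members stayed close to their WT level. Rpl10, which joins the large subunit late in its assembly, was at 523, 585 and 632 CPM in WT control and at 512, 554 and 685 CPM (lowest, median, highest) in KI control. Its log2 fold change was 0.01 ± 0.08 (adjusted p = 0.94, edgeR), and the groups overlapped. The changes of Rpl24, Rpl22, Rpl7a and Rps2 were 0.02, 0.02, 0.03 and 0.05, each within its SE. These p-values do not show that the levels were equal.

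**Figure D2:**
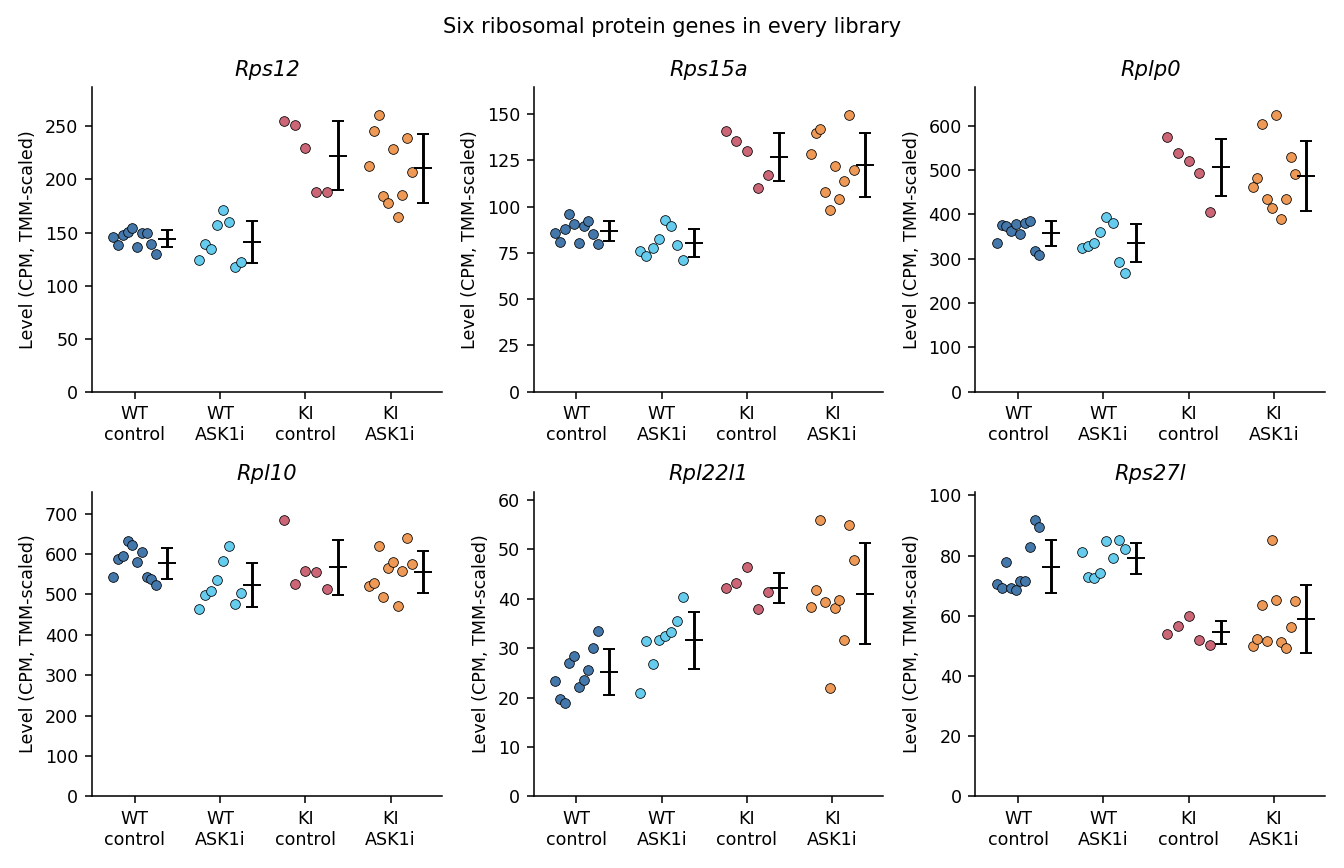
Level in CPM (vertical axis, from 0) of 6 members in the 4 groups; points are libraries and bars are mean ± SD. Rps12, Rps15a and Rplp0 are higher in KI control than in any WT control library, Rpl10 overlaps in all groups, Rpl22l1 is higher in KI control, and Rps27l is lower there.

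On the inhibitor diet the comparison of genotypes gave the same direction. With edgeR, 67 of 81 members were higher in KI ASK1i than in WT ASK1i, 1 was lower and 13 were not called, beside 30.3% of all genes called higher and 28.8% lower, 59.1% together. The median was 0.34 over the members and 0.01 over all genes. Small-subunit genes were higher in 28 of 33 cases, large-subunit genes in 36 of 45 and stalk genes in 3 of 3. The call counts without the library labelled KI ASK1i replicate 5 were again 67 higher and 1 lower, beside 31.8% of all genes called higher. Within the L1 libraries alone, with 2 WT and 4 KI libraries and no term for sex, 18 of 81 members were called higher and 1 lower. That share is close to the 17.8% of all genes called higher there, so this count is not read as a trait of the members. The members' median was 0.44.

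The smallest p belonged to Rps15a, at 71.1, 78.4 and 92.7 CPM in WT ASK1i and 98.4, 121 and 150 CPM in KI ASK1i. It rose by 0.62 ± 0.08 (1.54-fold; adjusted p = 5.37e-08, edgeR), and all 10 KI libraries lay above every WT library. It was the only member of 81 to do so, where 2.36% of all genes did. Both counts include the library labelled KI ASK1i replicate 5, which lay among WT over all genes. It held the lowest of these KI levels of Rps15a, 98.4 CPM. Rps12 was at 118, 137 and 171 CPM in WT ASK1i and 165, 209 and 261 CPM in KI ASK1i (0.61 ± 0.08), with 9 of 10 KI libraries above every WT library. The library labelled KI ASK1i replicate 5 was one of these 9, at 178 CPM.

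Rplp0 rose by 0.58 ± 0.08, from 268, 332 and 393 CPM to 390, 472 and 624 CPM, with 9 of 10 KI libraries above every WT library. Again the library labelled KI ASK1i replicate 5 was one of these 9, at 415 CPM. Rps6 (chr4:86854099-86857367), the substrate of the S6 kinases that mTORC1 activates, went from 225, 260 and 338 CPM to 297, 365 and 428 CPM, a rise of 0.47 ± 0.08 (adjusted p = 4.15e-06, edgeR). Rps27a (chr11:29545842-29548040), made as a fusion with ubiquitin, rose by 0.53 ± 0.09, from 152, 163 and 213 CPM to 195, 248 and 304 CPM. For both, 8 of 10 KI libraries lay above every WT library.

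Rps20, Rps10, Rpl32, Rpl12 and Rpl35 complete the 10 smallest p-values, with rises of 0.52, 0.45, 0.50, 0.57 and 0.49. Rps10 lies near the messenger entry and Rpl12 at the base of the stalk. In Rpl32 and Rpl35, 6 of 10 KI libraries lay above every WT library, so their groups overlapped more than those of Rps15a.

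The comparisons on the 2 diets share no libraries, although they share 1 fit and its estimate of the spread. All 58 members called higher on control chow were called higher on the inhibitor diet as well, which is 86.6% of the 67. The same overlap over all genes is not given here, so this one is not read as a trait of the members. The 9 called higher on the inhibitor diet but not on control chow were Rps3a1, Rpl30, Rpl28, Rpl27, Rpl4, Rpl8, Rpl9, Rps27 and Rpl7. Their changes on control chow ran from 0.12 to 0.23, and none of the 9 differed between diets by the test of the interaction given below. Among the 13 called in neither were Rpl10, Rpl11, Rpl15, Rpl22, Rpl24, Rpl35a, Rpl36, Rpl7a, Rpl7l1, Rps2, Rps4l and Rps15.

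**Figure D3:**
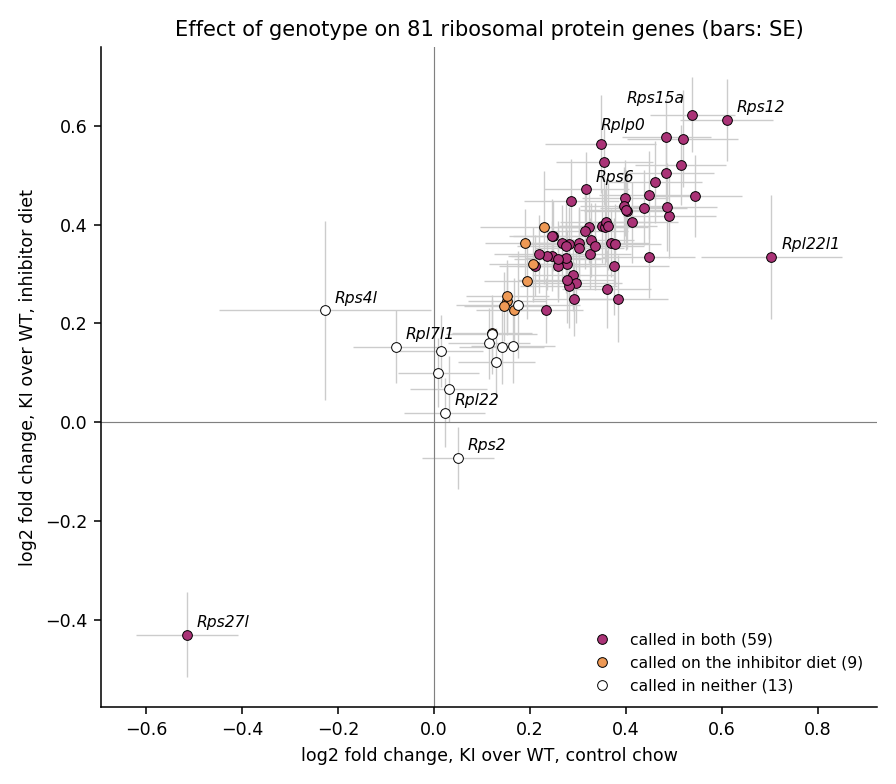
Log2 fold change of KI over WT for each of 81 members on control chow (horizontal) and on the inhibitor diet (vertical); grey bars are SE and colours give the comparisons in which a member was called. Of the members, 59 were called in both, 58 of them higher in KI, and Rps27l stands alone at the lower left.

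Relative to the member total, members were called in both directions. For this each library was scaled to its own total of member counts, a scaling chosen after seeing the data. In KI control 13 members were higher and 9 lower, beside 18.8% of all genes called higher and 44.5% lower on this scale. On the inhibitor diet 12 were higher and 12 lower, beside 17.8% and 50.4%. Each of these counts is a smaller share of the members than the share over all genes, so the counts are not read as a trait of the members. The 8 members relatively higher on both diets were Rpl12, Rpl32, Rpl35, Rplp0, Rps12, Rps15a, Rps16 and Rps20. The 8 relatively lower on both were Rpl10, Rpl11, Rpl22, Rpl24, Rpl35a, Rpl7a, Rps2 and Rps27l. Rps2 fell by 0.22 ± 0.08 on control chow and by 0.40 ± 0.07 on the inhibitor diet on this scale, which is a change relative to the member total and not a fall in level.

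Rps27l, a paralog of Rps27 that the tumour suppressor p53 is known to induce, went against the rest. Its row lies at chr9:66946118-66949509 on mm10. It was at 68.5, 71.4 and 92.0 CPM in WT control and at 54.0, 56.5, 59.8, 51.8 and 50.3 CPM in KI control, with all 5 KI libraries below every WT library, where 12.8% of all genes showed this. The log2 fold change was -0.51 ± 0.11 (adjusted p = 0.000143, edgeR). With the inhibitor it was at 72.6, 80.2 and 85.3 CPM in WT and 49.2, 54.2 and 85.3 CPM in KI, a change of -0.43 ± 0.09 (adjusted p = 8.43e-05, edgeR). Here 9 of 10 KI libraries lay below every WT library and the other, the library labelled replicate 5, lay above them all; without it the change was -0.53.

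Rps27 itself, a zinc-finger protein of the small subunit, was at 0.23 ± 0.13 on control chow (adjusted p = 0.14, edgeR) and rose by 0.39 ± 0.11 on the inhibitor diet. Rps27l accounted for 34.7% ± 4.78 of the counts of the pair in WT control, 25.3% ± 3.72 in KI control, 38.3% ± 5.55 in WT ASK1i and 26.8% ± 4.10 in KI ASK1i (SD; n = 10, 5, 8 and 10). The highest KI control library, at 28.9%, was below the lowest WT control library, at 30.4%. The ASK1i groups overlapped, since the highest KI library, at 33.3%, was above the lowest WT library, at 30.6%. The Rps27 row joins loci on 2 chromosomes in the table, so its counts are uncertain.

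Rpl22l1 (chr3:28805511-28807415), the paralog of the RNA-binding protein Rpl22, moved the other way. It was at 19.0, 24.6 and 33.5 CPM in WT control and at 42.2, 43.2, 46.4, 37.9 and 41.4 CPM in KI control. It rose by 0.70 ± 0.15 (adjusted p = 0.000173, edgeR), the largest change of any member here, while Rpl22 was at 0.02 ± 0.08. With the L code the Rpl22l1 change was 0.39 and lost its call (adjusted p = 0.18, edgeR). With the inhibitor it was at 21.0, 32.1 and 40.3 CPM in WT and 22.0, 39.7 and 56.1 CPM in KI, a rise of 0.33 ± 0.12 (adjusted p = 0.0223, edgeR) with overlapping groups. That call was lost with the L code as covariate (0.21), with the replicate block (0.28), with the 2 groups alone (0.33), in the L1 libraries alone (0.21) and without WT ASK1i replicate 2 (0.26). Rpl22l1 made up 20.9% ± 3.00 of the counts of the pair in WT control, 30.5% ± 2.31 in KI control, 25.3% ± 3.67 in WT ASK1i and 30.4% ± 5.84 in KI ASK1i.

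**Figure D4:**
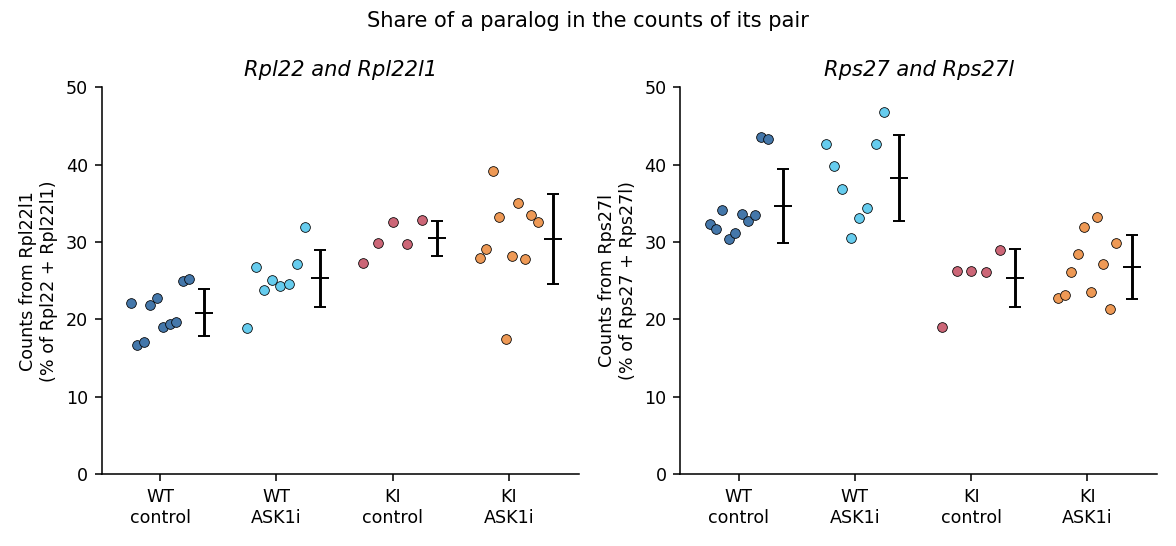
Percent of a pair's counts that came from the paralog (vertical axis), for Rpl22 with Rpl22l1 and Rps27 with Rps27l, by group; points are libraries and bars are mean ± SD. The Rpl22l1 share rises from 20.9% in WT control to 30.5% in KI control, and the Rps27l share falls from 34.7% to 25.3%.

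The other paralogs gave few calls. Rpl7l1, which works in assembly of the large subunit, was at -0.08 ± 0.09 on control chow and 0.15 ± 0.07 on the inhibitor diet (adjusted p = 0.46 and 0.0757, edgeR), and Rpl7 was at 0.12 ± 0.08 and 0.18 ± 0.07. Only the last of these 4 values was called (adjusted p = 0.0274, edgeR), and it lost its call with the replicate block (0.14), with numbered titles only (0.16), with group alone (0.16), with the 2 groups alone (0.17), in the L1 libraries alone (0.24) and without WT ASK1i replicate 2, 3 or 4 (0.17, 0.16 and 0.16). Rpl3 rose by 0.37 and 0.32 and Rps4x by 0.37 and 0.36, while the Rps4x relative Rps4l, at a mean of 8.36 CPM, was at -0.23 ± 0.22 and 0.23 ± 0.18 with no call. Rpl3l, known from muscle, and Rpl39l, known from testis, did not pass the count filter. They had 127 and 136 counts in all 33 libraries together, with 0 to 16 and 0 to 21 counts a library.

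The inhibitor was not seen to change any member in either genotype. In WT, 0 of 81 members were called with edgeR, DESeq2 or limma-voom between ASK1i and control, beside 1.40% of all genes with edgeR. Unadjusted p-values under 0.05 numbered 5, and the median of the members was -0.04. The smallest p belonged to Rps3a1, at 296, 339 and 354 CPM in WT control and 249, 283 and 344 CPM in WT ASK1i (-0.18 ± 0.07, adjusted p = 0.20, edgeR). Next were Rpl7l1 at -0.18, Rpl22l1 at 0.30, Rps2 at 0.15 and Rps27a at -0.19, each with an adjusted p of 0.25 to 0.30 (edgeR).

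In KI, 0 of 81 members were called with each of the same 3 tools, beside 0.0536% of all genes with edgeR, and 0 had an unadjusted p under 0.05. The members' changes ran from -0.10 to 0.44 with a median of 0.00 and a median SE of 0.09. Rps4l (0.44 ± 0.22), Rps27l (0.13), Rpl36 (0.14), Rps4x (-0.08) and Rps29 (-0.09) had the smallest p-values, with adjusted p of 0.49 to 0.72 (edgeR). The difference between the inhibitor's effects in KI and in WT was called in 0 members with each of the 3 tools, beside 0% of all genes with edgeR, with 0 unadjusted p under 0.05. Its median was 0.05, and the smallest p belonged to Rpl7l1 (0.23 ± 0.12), Rpl22l1 (-0.37 ± 0.19), Rps3a1 (0.17), Rps4l (0.45) and Rpl27a (0.22). The median SE of this difference was 0.12, larger than its median.

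Between females and males, 0 of 81 members were called with each of the 3 tools, beside 1.49% of all genes with edgeR, 0 had an unadjusted p under 0.05, and the median was 0.00. Of the members, 4 lie on the X chromosome. Rpl10 was at 0.07 ± 0.05, Rpl39 at -0.05 ± 0.06, Rps4x at -0.03 ± 0.05 and Rpl36a at -0.02 ± 0.06 in females over males. The smallest p belonged to Rps4l (-0.23 ± 0.14), followed by Rplp1, Rpl10, Rpl12 and Rpl22l1. The adjusted p-values of these 5 ran from 0.47 to 0.64 (edgeR).

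The rest of the translation machinery did not share 1 direction with the ribosomal proteins. The counts of each list stand beside 27.8% of all genes called higher and 28.9% lower on control chow, and 30.3% and 28.8% on the inhibitor diet. Calls in these lists come from the fit with the title set and were not followed through the alternatives. With the L code, calls over all genes on control chow went from 56.7% to 34.2%, so the list counts there may depend on that choice. Of 5 other ribosome components, 2 rose on control chow and 3 on the inhibitor diet, among them Gnb2l1, the scaffold protein Rack1 of the small subunit (0.32 ± 0.08 and 0.40 ± 0.07). Of 19 other genes with TOP messengers, 3 rose (15.8%) and 3 fell (15.8%) on control chow, and 7 rose (36.8%) and 1 fell (5.26%) on the inhibitor diet. The elongation factor subunits Eef1g (0.28 and 0.35) and Eef1b2 (0.24 and 0.30) rose on both diets. Hnrnpa1, a splicing factor, rose by 0.43 on control chow, and Tpt1 and the histone chaperone Nap1l1 rose by 0.28 and 0.36 on the inhibitor diet. Eif4b, which helps the helicase of initiation, fell by 0.63 and by 0.54.

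Initiation factors were called lower in 18 of 34 cases (52.9%) and higher in 0 on control chow, and lower in 8 (23.5%) and higher in 5 (14.7%) on the inhibitor diet. The helicase subunit Eif4a2 fell by 0.86 ± 0.15 and by 0.98 ± 0.12, from a mean of 234 to 127 CPM on control chow. Eif5, Eif2s3x and Eif3d, which act in start-codon recognition and in loading the small subunit, fell by 0.66, by 0.39 and by 0.42 on control chow. On the inhibitor diet Eif4a1 and the cap-binding protein Eif4e rose by 0.32 and 0.34, and the scaffold Eif4g3 rose by 0.50. Of 10 elongation and termination factors, 2 rose and 3 fell on control chow, among them the release factor Gspt1 and the recycling factor Abce1 (-0.33 and -0.33). With the inhibitor 2 rose and 1 fell, the last being the kinase Eef2k (-0.45).

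Ribosome assembly factors were split: of 54, 2 rose (3.70%) and 13 fell (24.1%) on control chow, while 27 rose (50%) and 7 fell (13.0%) on the inhibitor diet. The share that fell on control chow was below that over all genes. Eif6, which keeps the large subunit from joining too early, rose by 0.57 ± 0.12 and 0.80 ± 0.10. Nol6, Nmd3 and Sbds fell by 0.39, by 0.54 and by 0.54 on control chow; Nmd3 exports the large subunit and Sbds helps remove Eif6 from it. On the inhibitor diet the nucleolar proteins Heatr1, Nop58 and Mybbp1a rose by 0.52, 0.54 and 0.54. The diets did not differ in any gene of this list by the test of the interaction, whose smallest adjusted p here was 0.37 for Rrs1 (0.57 ± 0.16, edgeR).

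Genes of mTORC1 and MYC control were lower in 10 of 16 cases (62.5%) and higher in 3 on each diet. Tsc2, the brake on mTORC1, fell by 0.60 and by 0.56, and Rptor, the subunit that picks mTORC1's substrates, fell by 0.53 and by 0.50. Max, the partner of MYC, rose by 0.69 and 0.59. Deptor fell by 0.81 on control chow and Eif4ebp2 fell by 0.59 on the inhibitor diet; both are inhibitors in this pathway. Mitochondrial ribosomal protein genes, which encode the separate ribosome of that organelle, were lower in 48 of 76 cases (63.2%) on each diet, and 3 and 6 were higher. Mrps5 fell by 0.76 and by 0.73, Mrps18a by a log2 change of -0.63 and -0.59, Mrps10 and Mrpl39 by -0.78 and -0.61 on control chow, and Mrpl49 and Mrpl1 by -0.67 and -0.65 on the inhibitor diet. Their median was -0.26 on each diet, on the side opposite to the cytosolic members at 0.29 and 0.34.

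**Figure D5:**
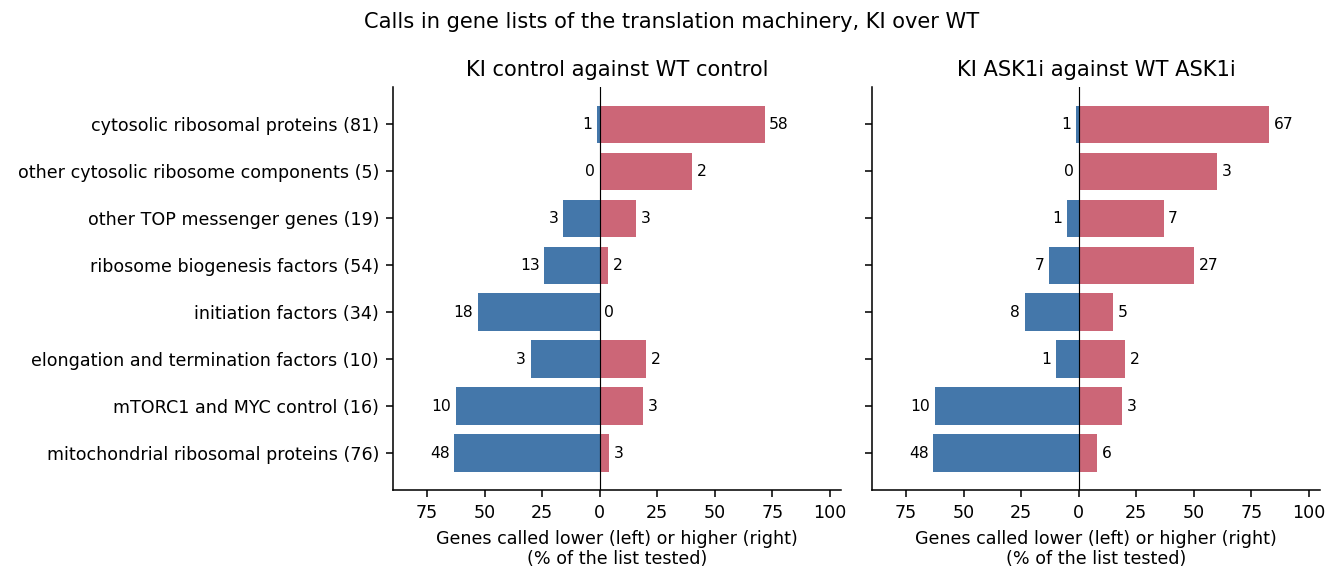
Percent of each gene list called higher (right, red) or lower (left, blue) in KI than in WT, on control chow and on the inhibitor diet; numbers at the bars are counts of genes and numbers in parentheses are the genes tested. Cytosolic ribosomal proteins are mostly higher (58 and 67 of 81) and mitochondrial ribosomal proteins mostly lower (48 and 48 of 76). All calls shown are from the fit with the title set.

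For the other comparisons these lists gave few calls. The inhibitor in WT lowered the assembly factor Rrp12 (-0.58 ± 0.14, adjusted p = 0.0255, edgeR) and raised Mrps27 (0.40) and Mrpl42 (0.26). Over the other lists the smallest p in WT belonged to Rpl36al (-0.18), Gas5 (-0.32), Eif3g (-0.17), Abce1 (-0.19) and Eif4ebp2 (0.17), with no call. In KI the smallest p of these lists belonged to Mrpl53 (0.34 ± 0.09), whose adjusted p was 0.32 (edgeR), so none was called. Females exceeded males in Eif2s3x (0.72 ± 0.05, adjusted p = 2.47e-12, edgeR), an X-linked gene known to escape inactivation.

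Markers of other cells moved with genotype beside the ribosomal protein genes. In the fit with the title set, all 11 neutrophil markers and all 12 macrophage and Kupffer cell markers tested were higher in KI on both diets. So were 9 of 10 division genes. On control chow the summed neutrophil markers spanned 6.36 to 24.3 CPM (WT) and 729 to 3869 CPM (KI), and with the inhibitor 4.38 to 11.7 CPM (WT) and 11.0 to 5056 CPM (KI). Macrophage and Kupffer markers spanned 349 to 1092 CPM (WT) and 1818 to 2620 CPM (KI) on control chow, and 440 to 638 CPM (WT) and 606 to 2710 CPM (KI) with the inhibitor. Division genes spanned 39.0 to 62.5 CPM (WT) and 75.8 to 259 CPM (KI) on control chow, and 39.4 to 61.6 CPM (WT) and 44.0 to 226 CPM (KI) with the inhibitor. The lowest value of each list in KI with the inhibitor was that of the library labelled KI ASK1i replicate 5; without it the KI neutrophil sum began at 709.2 CPM, the macrophage and Kupffer sum at 1145 CPM and the division sum at 56.7 CPM, so that the first 2 no longer overlapped WT. No marker of these lists was at 0 in all libraries.

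Hepatocyte markers, which were high in every library as liver tissue would have them, summed to 119482 to 148546 CPM (WT) and 49641 to 74699 CPM (KI) on control chow, and to 117287 to 156620 CPM (WT) and 51099 to 126180 CPM (KI) with the inhibitor. The highest KI value was again that library's, and the next was 88161 CPM, under every WT library. On control chow 6 of 10 were lower and 1 was higher in KI, and on the inhibitor diet 4 were lower and 3 higher. Stellate and endothelial markers were higher in 6 of 10 cases on control chow, bile duct markers in 1 of 5, T and B cell markers in 1 of 11 with 5 lower, and erythroid markers in 0 of 6 with 2 lower. On the inhibitor diet these 4 lists had, in the same order, 4, 2, 2 and 1 higher and 1, 1, 5 and 2 lower. The library labelled KI ASK1i replicate 5 had the lowest Nlrp3 level of its group, yet its share of counts in ribosomal protein genes lay above 7 of 8 WT ASK1i libraries. The part of these cell types, of dividing cells and of fewer hepatocyte transcripts in the values of the ribosomal protein genes was not tested.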

How the data were processed

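The authors deposited RSEM expected counts per gene, not normalised (91.4% to 93.7% whole per library). Per the labels' protocols, RNA came from frozen liver (Qiagen miRNeasy kit) and libraries from the TruSeq Stranded mRNA kit. Tools named, per the submitters' processing notes, are STAR 2.4, RSEM 1.2.14 and CASAVA 1.8.2, with the build mm10. Settings and gene annotation: not given in the sources used here. RSEM divides reads that fit several rows, and ribosomal protein genes have many processed copies: 15 of 83 members had a fractional count in some library, and Rps27 and Rpl29 rows join loci on several chromosomes.

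After rounding, 1 model of all 33 libraries held terms for group, for sex and for title set (plain numbers, or numbers with a P). It used edgeR 4.0.16 in R 4.3.3: filterByExpr on the groups, TMM factors and a robust quasi-likelihood test. Adjusted p-values are Benjamini-Hochberg over 14934 genes, with a threshold of 0.05, two-sided. The prior count was 0.125, and each SE is the log2 fold change over the root of its F value. The labels do not say that libraries are separate mice, so p-values measure the spread between libraries, which may be technical. None of the 528 pairs of libraries was a repeat by a chi-square of their counts, and sex labels matched Xist and Ddx3y in 33 of 33.

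The members, lists, tests and named-gene rule were chosen with earlier results of these data known. The rule named, per comparison, up to 10 called members with the smallest p in each direction, paralogs, members under the filter, X-linked members, the 5 with the most counts (Rpl10, Rpl4, Rplp0, Rpsa and Rps2), and from each list up to 4 called genes on each diet or 2 elsewhere; where fewer than 5 members were called, the 5 smallest p. Rpl5, Rpl11, Rpl13, Rpl14, Rpl24, Rpl7a and Rps16, and the members counted as called on 1 diet or neither, were named after their values were seen. Alternatives were other scalings, filters, covariates and subsets, DESeq2 1.42.0, limma-voom (limma 3.58.1) and each library left out. The tests were checked on simulated data. A named result is left out and not reported here.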

Additional observations from a re-analysis of the deposited data

Results flagged for a closer look

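In 29 named members and the share of counts, 120 sets of 1 measure in 1 group were checked for a library far from the others. Chance alone gives this in about 1 in 20 sets. The 4 that stood out are no more than that share. Rps27l in the library labelled KI ASK1i replicate 5 was at 85.3 CPM, where the other 9 libraries lay between 49.2 and 65.1 CPM; this library lay among WT on all genes. Rpl10 in KI control replicate 1 was at 685 CPM, beside 512 to 557 CPM in the others. Rps2 in WT ASK1i replicate 6 was at 397 CPM, beside 364 to 378 CPM. Rps20 in WT control replicate 8 was at 143 CPM, beside 110 to 125 CPM.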

How the results depend on the processing

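Over the alternatives, the members called between KI and WT stayed within 1.5 times of 59 on control chow and 68 on the inhibitor diet, except as follows. With the L code in place of the title set, 9 were called on control chow; the cause was not tested. In the L1 libraries alone, 19 were called on the inhibitor diet. This fit has fewer libraries and no term for sex. Scaled to the member total, 22 and 24 were called, since that scaling removes what members share. Leaving out 1 library gave 42 (without KI control replicate 1) to 67 (without KI control replicate 4) on control chow and 66 to 76 on the inhibitor diet, and 0 in the other 4 comparisons. The members' median for the difference between the inhibitor's effects, 0.05, moved to 0.17 with the L code, -0.04 with the replicate block and -0.04 with numbered titles only, with 0 members called in each; the cause was not tested. It ran from -0.0029 (without KI control replicate 4) to 0.11 (without KI control replicate 1) with 1 library left out, and the inhibitor's median in WT, -0.04, reached -0.09 without WT ASK1i replicate 6. Library totals moved the members' median on control chow to 0.42 and that of all genes from -0.03 to 0.10. Scaled to the member total, 15 of the 59 called members on control chow and 19 of the 68 on the inhibitor diet took the other sign, by the construction of that scaling; among members followed through every alternative these were Rpl3 (-0.018) and Rpl7 (-0.15) on the inhibitor diet. The members so followed kept their sign under the other alternatives. Replicate numbers are shared between groups. Same-numbered libraries of different groups had a median correlation of 0.036 over 37 pairs, with 14 pairs above 0.1. Pairs with other numbers had a median of -0.0048 over 363 pairs, with 84 above 0.1. These values do not settle whether the numbers pair the libraries. With the replicate block in place of the title set, 62 and 66 members were called, and 0 in each other comparison. Without the 50 most abundant genes in the denominator, the members' share was 2.22%, 2.05%, 3.14% and 2.89% in WT control, WT ASK1i, KI control and KI ASK1i; the 50 genes take up much of each total. The smallest changes called among members were 0.21 on control chow (Rpl14) and 0.18 on the inhibitor diet (Rpl7), and no smaller one was called with these libraries.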
